A study of Homo sapiens with 5 samples.

Results

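The genes described here are 10 transcriptional outputs of the ERK cascade that act back on it or carry its signal on: DUSP4, DUSP5, DUSP6, SPRY2, SPRY4, SPRED1, ERRFI1, PHLDA1, ETV4 and ETV5. They were chosen by name, as all transcripts that GENCODE v44 assigns to these genes, with reads summed per gene. They are 10 of 61220 genes that received a sum. All 10 were among the 13492 genes tested, a gene being tested when 2 or more libraries held 10 or more of its reads. The RNA came from NCI-H1975 and HCC827, a pair of established human lung adenocarcinoma cell lines that both carry activating EGFR mutations. They were grown in serum-containing medium to near confluence, with no drug recorded in the labels. RNA of NCI-H1975 was labelled as carrying sequin mix A and RNA of HCC827 as carrying sequin mix B (synthetic spike-in transcripts). The reads assigned to sequins numbered 5475, 4678, 2830, 1269 and 0 from the library labelled 100:0 to the one labelled 0:100, so the last held none, which goes against its label of mix B. Values without that library are given where a call depends on it. HCC827 RNA was 0, 25, 50, 75 or 100% of the input mass, and 1 long-read cDNA library was made from each of these inputs. A library name gives the NCI-H1975 percentage first and the HCC827 percentage second, from 100:0 to 0:100. Each line contributed a single RNA preparation, so the comparison is between 2 preparations and does not cover differences between cultures.

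Growth factor receptors such as EGFR activate RAS, which activates RAF, MEK and ERK in turn. Active ERK induces genes whose products weaken the pathway again, and the transcript levels of these genes are widely used as a readout of pathway output. They act at several levels: ERRFI1 and PHLDA1 near the receptor, Sprouty and SPRED proteins around RAS and RAF, and dual-specificity phosphatases (DUSP) on ERK itself. ETV4 and ETV5 are ETS-family transcription factors induced by the same signal. In EGFR-mutant lung cancer cells, levels of these genes usually drop when the receptor is inhibited.

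ETV4 was the member that separated the RNAs of the lines most clearly, with about 4 times as many scaled reads in HCC827 as in NCI-H1975. DUSP6, SPRY2 and ERRFI1 rose by smaller amounts toward HCC827, and those 3 calls depended on how libraries were scaled. DUSP4, DUSP5, SPRY4, SPRED1, PHLDA1 and ETV5 did not pass the test. The 10 genes therefore did not move as a block between these RNAs. In the main test, 4 of the 10 rose and 0 fell (edgeR, and the same 4 were the members with an unadjusted p under 0.05, while DESeq2 called 3 as rising and 0 as falling), against 23.5% of all genes tested that rose and 22.3% that fell. The share called in either direction, 4 of 10, was close to the 45.7% of all genes tested. The median slope of the members was 0.06, against -0.03 for all 13492 genes.

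Slopes are log2 changes between pure NCI-H1975 and pure HCC827 RNA, estimated from all 5 libraries (quasi-likelihood test of edgeR, Benjamini-Hochberg adjustment over all genes tested, threshold 0.05). Levels are in CPM, the read count scaled to a common library size, given either as CPM of the library total or as TMM-scaled CPM, which corrects for differences in RNA composition (trimmed mean of M-values). The choice matters in this series because the TMM factor ran in order from 1.16 in the 100:0 library to 0.867 in the 0:100 library. With library totals alone, the median slope of all genes tested was -0.44, and changes on that scale are read against it. On that scale 1 member rose (ETV4) and 2 fell (DUSP5 and PHLDA1), where 13.4% of all genes tested rose and 37.6% fell.

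**Figure D1:**
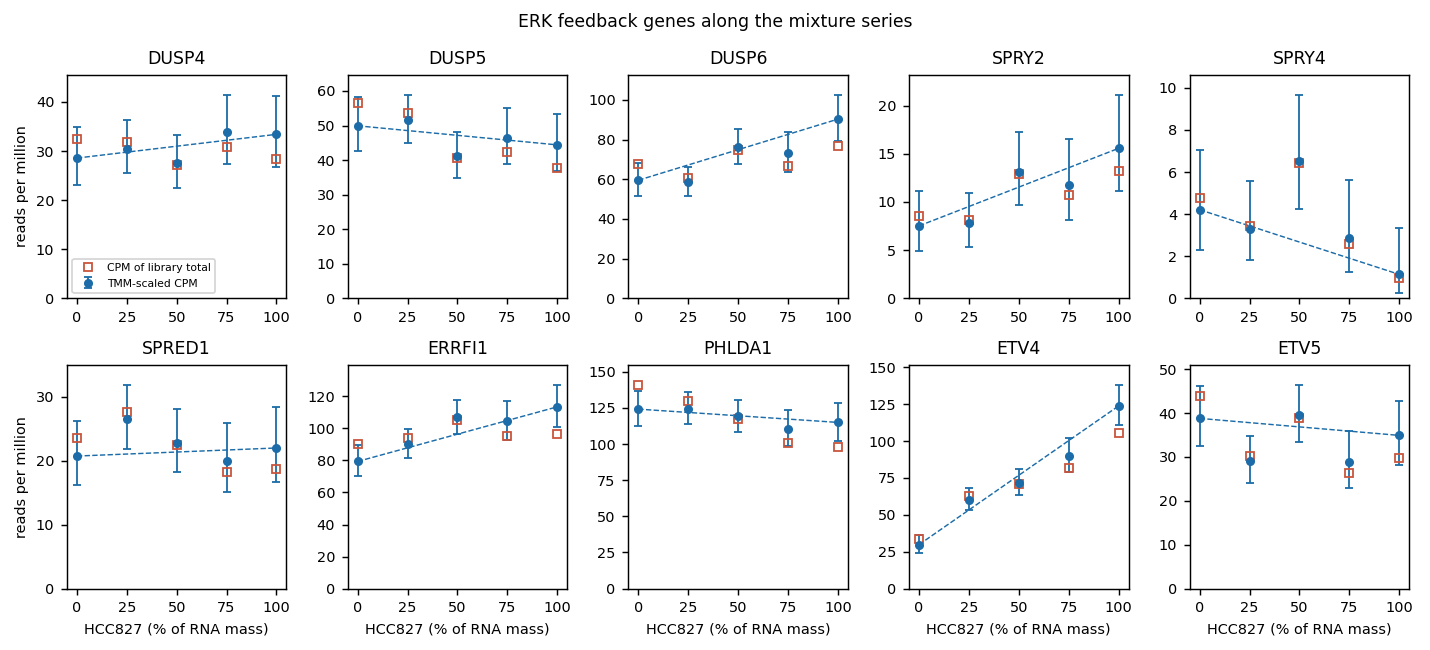
Level of each of the 10 genes (CPM, linear axes from 0) against the HCC827 percentage of RNA mass, 1 library per point. Filled circles are TMM-scaled CPM with 95% Poisson intervals for counting error, open squares are CPM of the library total, and the dashed line joins the TMM-scaled values of the pure libraries. ETV4 runs from 29.8 to 124 TMM-scaled CPM, while the open squares of DUSP6 and ERRFI1 rise much less than the circles.

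ETV4 (ENSG00000175832.13, GRCh38 chromosome 17, 43527844 to 43579620, minus strand) had 99, 255, 274, 252 and 326 reads from the 100:0 to the 0:100 library. Its TMM-scaled levels were 29.8, 60.3, 71.8, 89.9 and 124 CPM, so every step toward HCC827 was a step up. Its levels per library total, 33.8, 62.8, 70.6, 81.9 and 105 CPM, ran in the same order. The slope was 1.77 ± 0.20 (SE, adjusted p = 1.88e-05 by edgeR), and 1.37 with library totals (adjusted p = 9.77e-05). ETV4 passed the test in all 14 fits run, with slopes from 1.37 to 1.99. The pure libraries differed 4.16-fold (95% exact conditional binomial interval 3.31 to 5.26, counting error only), with no replicate of either. The 3 mixed libraries held 1.13, 0.935 and 0.897 times the reads that a mixture of the pure libraries by mass gives, all within their counting intervals. In bulk RNA, more cells carrying a transcript and more transcript per cell cannot be told apart.

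Almost all ETV4 reads were assigned to 3 protein-coding transcripts that differ in how they begin. They have 10 exons in common, of 13 in ETV4-201 and 12 in each of ETV4-202 and ETV4-203. Beyond their beginnings, exons that are not the same in all 3 are not described here. ETV4-201 starts in an exon at chromosome 17, 43546185 to 43546340, and ETV4-202 at 43545558 to 43545671. ETV4-203 starts at 43545861 to 43545937 and skips the exon that holds the start codon of the other two, so its annotated reading frame starts in the next exon and has 1335 coding bases in place of 1452. The coding sequence at these start sites is shown because that of ETV4-203 begins later than that of ETV4-201 and ETV4-202. ETV4-201 and ETV4-202 differ from each other in their first exons. The first stretch (chr17:43545558-43545617, minus strand) is in ETV4-201 and ETV4-202 and absent from ETV4-203. The second (chr17:43545274-43545310, minus strand) is in all 3 and opens the coding sequence of ETV4-203. Both are GENCODE v44 sequences on GRCh38, 5′ to 3′, with the start codon in capitals.
ETV4-201 and ETV4-202 start: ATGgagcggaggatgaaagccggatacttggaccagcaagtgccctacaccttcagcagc
ETV4-203 start: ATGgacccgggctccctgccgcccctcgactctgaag

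All 3 transcripts rose toward HCC827. ETV4-203, which lacks the first stretch, had 48, 153, 170, 157 and 207 reads along the series and a slope of 1.94 ± 0.24 (SE, adjusted p = 5.66e-06 by edgeR). ETV4-202 had 20, 47, 57, 43 and 62 reads with a slope of 1.59 ± 0.31 (SE, adjusted p = 5.20e-04 by edgeR), and ETV4-201 had 31, 54, 46, 51 and 57 reads with a slope of 1.11 ± 0.29 (SE, adjusted p = 0.00583 by edgeR). ETV4-203 took 48.5% of the gene's reads in the 100:0 library and 60.0%, 62.0%, 62.3% and 63.5% in the libraries that followed. That shift in usage did not pass the test (adjusted p = 0.999988, Simes method of diffSpliceDGE in edgeR). A cDNA read that stops short of the start cannot be placed among these transcripts by how they begin. How such reads were divided was not stated in the sources used here. DHX8 lies over ETV4 on the opposite strand, shares 54 exonic bases with the 3 transcripts and had 34.0, 25.8, 30.1, 35.0 and 38.3 TMM-scaled CPM. The part of DHX8 reads in the ETV4 result was not tested.

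**Figure D2:**
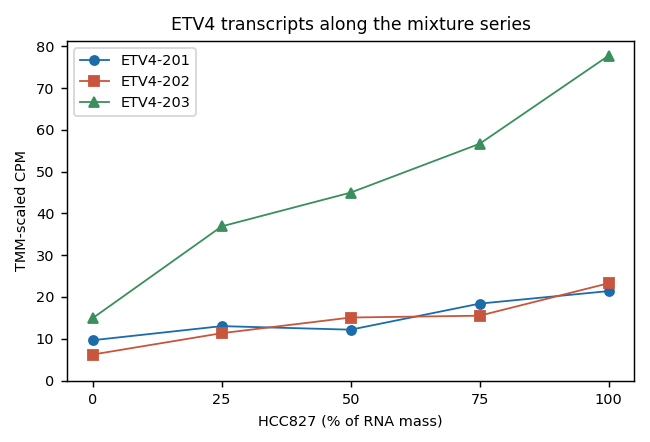
TMM-scaled CPM of the 3 ETV4 transcripts (vertical axis from 0) against the HCC827 percentage of RNA mass, 1 library per point. ETV4-203 lies highest in all 5 libraries, from 14.9 to 77.8 CPM, and ETV4-201 and ETV4-202 end at 21.4 and 23.3 CPM.

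ETV5 (ENSG00000244405.8, chromosome 3, 186046314 to 186110318, minus strand), the closest relative of ETV4 among the members, showed no such trend. It had 129, 123, 151, 81 and 92 reads, or 38.8, 29.1, 39.6, 28.9 and 34.9 TMM-scaled CPM. The values went up and down without order, and the 75:25 library lay below the mixture line at 0.769 times its expected reads. The slope was -0.12 ± 0.24 (SE, adjusted p = 0.706 by edgeR). The pure libraries differed 0.900-fold (95% exact interval 0.681 to 1.19). DGKG overlaps ETV5 on the same strand and had 44 reads in all.

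The ratio of ETV4 to ETV5 reads within a library does not depend on scaling. From the 100:0 to the 0:100 library it was 0.767, 2.07, 1.81, 3.11 and 3.54. ETV5 had the higher read number only in the pure NCI-H1975 library. The slope of the log2 ratio was 2.00 (exact permutation test over the 120 orders of the libraries, two-sided, p = 0.05), and 1.24 without the 100:0 library. Within the DUSP, Sprouty and ETV families 5 pairs of members were compared in this way, and the adjusted p of this pair was 0.0833. This comparison was chosen after the values had been seen, and 0.0167 is the smallest p the 5 libraries allow.

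**Figure D3:**
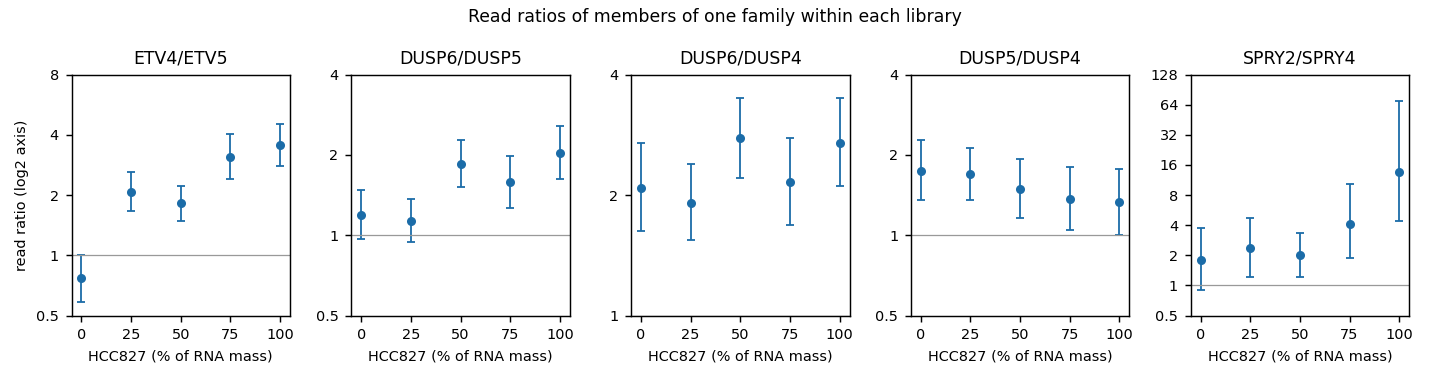
Ratio of reads of 2 members of one family within each library (log2 axis, 95% exact binomial intervals for counting error) against the HCC827 percentage of RNA mass. ETV4/ETV5 runs from 0.767 to 3.54 and SPRY2/SPRY4 from 1.79 to 13.7, while DUSP5/DUSP4 runs in small steps from 1.75 to 1.33.

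Among the ERK phosphatases, DUSP6 was the one called in the main test. DUSP6 (ENSG00000139318.8, chromosome 12, 89347235 to 89352501, minus strand) is a cytoplasmic phosphatase with a strong preference for ERK. It had 198, 247, 291, 205 and 238 reads. Its TMM-scaled levels were 59.5, 58.4, 76.2, 73.1 and 90.3 CPM: the first 2 libraries were alike, and the 0:100 library was highest. The slope was 0.62 ± 0.16 (SE, adjusted p = 0.00602 by edgeR), and the pure libraries differed 1.52-fold (95% exact interval 1.25 to 1.84). Per library total the levels were 67.5, 60.9, 75.0, 66.6 and 77.0 CPM, and the slope of 0.21 did not pass (adjusted p = 0.283). The call was also lost without the 0:100 library (slope 0.52, adjusted p = 0.0945). Transcript DUSP6-201 held 92.5% of the reads and rose with a slope of 0.58 (edgeR, adjusted p = 0.0151).

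DUSP5 (chromosome 10, 110497907 to 110511533, plus strand), a nuclear phosphatase that acts on ERK, had 166, 218, 157, 130 and 117 reads. Its TMM-scaled levels lay between 41.1 and 51.5 CPM with overlapping counting intervals, and its slope was -0.21 ± 0.18 (SE, adjusted p = 0.366 by edgeR). Per library total it went from 56.6 to 37.8 CPM and was called as falling, with a slope of -0.61 (edgeR, adjusted p = 0.0115). DUSP4 (chromosome 8, 29333064 to 29350684, minus strand), a nuclear phosphatase with broader targets among MAP kinases, had 95, 129, 105, 95 and 88 reads and 28.6, 30.5, 27.5, 33.9 and 33.4 TMM-scaled CPM. Its slope was 0.24 ± 0.21 (SE, adjusted p = 0.368 by edgeR), and with library totals it turned to -0.17, again without a call. The 2959-base transcript DUSP4-202 went from 16.8% to 29.5% of DUSP4 reads, on 16 and 26 reads, and its usage did not pass the test (edgeR diffSpliceDGE, adjusted p = 0.999988).

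Read ratios within a library were also taken between the phosphatases. The ratio of DUSP5 to DUSP4 reads was 1.75, 1.69, 1.50, 1.37 and 1.33, lower in each successive library (slope of the log2 ratio -0.44, exact permutation test, two-sided, p = 0.0167, adjusted p = 0.0833 over 5 pairs). The ratio of DUSP6 to DUSP5 went from 1.19 to 2.03 (slope 0.81, exact permutation p = 0.1, adjusted p = 0.125). The ratio of DUSP6 to DUSP4 went from 2.08 to 2.70 (slope 0.37, exact permutation p = 0.3, adjusted p = 0.3). None of the 5 pairs passed 0.05 after adjustment.

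Sprouty proteins block signalling between receptor and RAF, and both members of this family had few reads. SPRY2 (ENSG00000136158.12, chromosome 13, 80335976 to 80341126, minus strand) had 25, 33, 50, 33 and 41 reads. Its TMM-scaled levels of 7.52, 7.80, 13.1, 11.8 and 15.6 CPM were lowest in the 2 libraries with most NCI-H1975 RNA. The slope was 1.08 ± 0.35 (SE, adjusted p = 0.0236 by edgeR), and the pure libraries differed 2.07-fold with a wide interval (95% exact interval 1.23 to 3.55). With library totals the slope was 0.67 and did not pass (adjusted p = 0.128). SPRY2 was not called by the Wald test of DESeq2 either (adjusted p = 0.0788), nor without the 100:0, 75:25 or 0:100 library (slopes 1.11, 0.93 and 1.11, adjusted p = 0.0744, 0.0762 and 0.128). It was the least stable of the 4 calls, with 9 of 14 fits.

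SPRY4 (chromosome 5, 142310427 to 142326455, minus strand) had 14, 14, 25, 8 and 3 reads, the fewest of the 10 genes. Its TMM-scaled level was highest in the 50:50 library at 6.55 CPM and lowest in the 0:100 library at 1.14 CPM. A mixture of the pure libraries gives 10.2 reads at 50:50, and the 25 reads seen there (95% Poisson interval 16.2 to 36.9) were 2.45 times that number. The slope of -0.98 ± 0.78 (SE, adjusted p = 0.322 by edgeR) did not pass, and without the 0:100 library it was 0.02. The pure libraries differed 0.270-fold (95% exact interval 0.0498 to 0.969), which rests on 3 reads in the 0:100 library. With a floor of 10 reads, which replaces those 3 reads, its log2 ratio was -0.15 in place of -1.89. In the 0:100 library, 1 of the 3 reads was assigned to a coding transcript and 2 to one with a retained intron. SPRY4-AS1, on the opposite strand, had 8 reads in all. The ratio of SPRY2 to SPRY4 reads was 1.79, 2.36, 2.00, 4.13 and 13.7 along the series (slope of the log2 ratio 2.67, exact permutation test, two-sided, p = 0.05, adjusted p = 0.0833). Without the 0:100 library that slope was 1.35.

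SPRED1 (chromosome 15, 38252836 to 38357249, plus strand) brings the RAS-inactivating protein neurofibromin to the membrane. It had 69, 112, 87, 56 and 58 reads and 20.7, 26.5, 22.8, 20.0 and 22.0 TMM-scaled CPM. The pure libraries were nearly equal (1.06-fold, 95% exact interval 0.735 to 1.53), and the 75:25 library stood above both, at 1.26 times the mixture expectation. The slope was -0.11 ± 0.26 (SE, adjusted p = 0.741 by edgeR). Its main transcript, SPRED1-201, has a deposited length of 7270 bases and held 97.6% of the reads.

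Near the receptor, ERRFI1 was called in the main test and PHLDA1 was not. ERRFI1 (ENSG00000116285.13, chromosome 1, 8004404 to 8026309, minus strand) encodes MIG6, which binds the EGFR kinase domain and inhibits it. It had 264, 381, 408, 293 and 299 reads and 79.4, 90.1, 107, 105 and 113 TMM-scaled CPM, with the 50:50 and 25:75 libraries alike. The slope was 0.50 ± 0.14 (SE, adjusted p = 0.0101 by edgeR), and the pure libraries differed 1.43-fold (95% exact interval 1.21 to 1.69). Per library total the levels were 90.0, 93.9, 105, 95.2 and 96.7 CPM, highest in the 50:50 library, and the slope of 0.09 did not pass (adjusted p = 0.611). The call was also lost without the 100:0 library (slope 0.40, adjusted p = 0.0957). RNA of EGFR, the receptor that MIG6 inhibits, went from 94.7 to 980 TMM-scaled CPM, with a slope of 2.96 ± 0.38 (SE, adjusted p = 4.95e-05 by edgeR). With library totals the slope of EGFR was 2.56.

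PHLDA1 (ENSG00000139289.15, chromosome 12, 76025447 to 76031776, minus strand), a pleckstrin-homology-like protein induced by ERK, had 413, 527, 455, 310 and 303 reads. Its TMM-scaled levels of 124, 125, 119, 111 and 115 CPM had overlapping counting intervals, and the slope was -0.16 ± 0.12 (SE, adjusted p = 0.313 by edgeR). Per library total it went from 141 to 98.0 CPM and was called as falling, with a slope of -0.57 (edgeR, adjusted p = 0.00199). Its reads were divided almost evenly between PHLDA1-201 (50.2%) and PHLDA1-202 (49.8%), neither of which passed the slope test. The transcript lengths deposited with the counts average 6911 bases for PHLDA1 when weighted by reads, more than the span of its locus given above. With the length trend of each library removed, the slope of PHLDA1 turned to 0.16, without a call, and that value rests on this length. The read-weighted mean transcript length of whole libraries went in order from 2579 bases in the 100:0 library to 2180 in the 0:100 library.

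**Figure D4:**
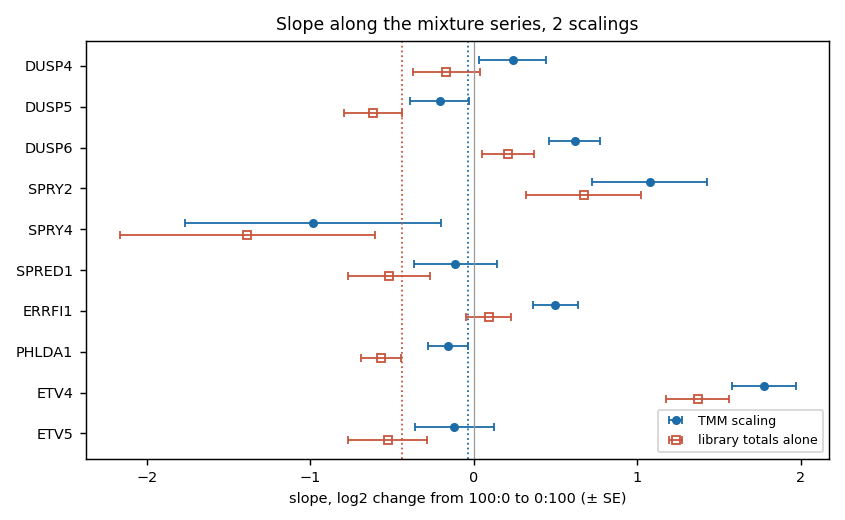
Slope of each of the 10 genes along the mixture series (horizontal axis, log2 change from 100:0 to 0:100, bars are SE), with TMM scaling as filled circles and library totals as open squares. Dotted lines mark the median slope of all genes tested, -0.03 and -0.44. ETV4 lies to the right of 0 on both scales, whereas DUSP4 lies on opposite sides of it.

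At transcript level, 52 transcripts of the 10 genes were listed, 32 had reads and 16 passed the filter. Of these, 5 rose and 0 fell (edgeR, 8 with an unadjusted p under 0.05), where 33.6% of all 31758 transcripts tested were called and 17.5% rose. The 5 were the 3 ETV4 transcripts, DUSP6-201 and ERRFI1-201, the last with 99.5% of its gene's reads. Isoform usage could be tested in 6 of the 10 genes (DUSP4, DUSP6, ETV4, ETV5, PHLDA1 and SPRY2), and 0 passed (edgeR diffSpliceDGE), against 0.402% of 7455 genes. Of these 6, 0 had an unadjusted Simes p under 0.05. By the gene-level F test of edgeR 0 passed, and DUSP4 alone had an unadjusted p under 0.05, with an adjusted p of 0.648.

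The mixed libraries give a check on single values. For the 10 genes and 3 mixed libraries, 25 of 30 read counts had the mixture expectation by mass within their 95% Poisson interval. The 5 others were DUSP6 and ETV5 at 75:25 (below), SPRED1 at 75:25, SPRY4 at 50:50 and ERRFI1 at 50:50 (above). When the mixing share was instead estimated from the reads of all genes, at 32.7%, 55.4% and 78.2% HCC827, 24 of 30 were within. Between the pure libraries, 3 members differed at least 2-fold after TMM scaling with a floor of 3 reads (ETV4, SPRY2 and SPRY4), as did 34.6% of all genes tested. SPRY2 differed 1.55-fold with library totals. SPRY4 was below 2-fold with a floor of 10 reads, but that floor replaces its 3 reads at 0:100 and so sets the ratio.

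The remaining genes of the pathway were read from 3 lists. In the list of 20 genes of the RAS-ERK cascade, inhibitors of RAS and the repressor CIC included, 1 rose and 7 fell, with a median slope of -0.27. The 8 called of 20 were close to the 45.7% of all genes tested, of which 23.5% rose and 22.3% fell, with a median slope of -0.03. MAPK3, which encodes ERK1, rose from 40.3 to 79.7 TMM-scaled CPM (slope 0.87 ± 0.17, SE, edgeR quasi-likelihood test, adjusted p = 0.00138). The largest falls were those of PTPN11, the phosphatase SHP2 that helps activate RAS (slope -0.82), the RAS inhibitor NF1 (slope -0.74) and the RAS exchange factor SOS1 (slope -0.72). The adaptors GRB2 and SHC1 fell with slopes of -0.54 and -0.48. CIC, a repressor of ETV4 and ETV5 that ERK inactivates, had a slope of 0.50 ± 0.26 (SE, adjusted p = 0.142 by edgeR). With library totals, 1 of the 20 rose and 10 fell, where 13.4% of all genes tested rose and 37.6% fell.

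Of 14 relatives of the members, 13 were tested, 4 rose and 2 fell, with a median slope of 0.44. The 6 called of 13 were close to the 45.7% of all genes tested, where 23.5% rose and 22.3% fell. SPRY3 had 0, 1, 3, 0 and 0 reads and was not tested. DUSP1, a phosphatase of several MAP kinases, rose from 4.81 to 16.7 TMM-scaled CPM (slope 1.85 ± 0.36, SE, edgeR quasi-likelihood test, adjusted p = 0.00122). SPRY1 rose from 14.4 to 42.1 TMM-scaled CPM (slope 1.49 ± 0.22, SE, edgeR, adjusted p = 1.66e-04), and DUSP16, a JNK phosphatase, from 19.8 to 43.6 (slope 1.01). SPRED2, the relative of SPRED1, fell from 33.7 to 10.6 TMM-scaled CPM (slope -1.40 ± 0.26, SE, edgeR, adjusted p = 8.11e-04), and DUSP9 fell from 11.1 to 3.80 (slope -1.30). PHLDA3 rose with a slope of 0.44 and lost that call with library totals. ETV1, the remaining factor of the ETV4 and ETV5 subfamily, had a slope of -0.63 ± 0.40 (SE, adjusted p = 0.211 by edgeR) and was called as falling with library totals (slope -1.04, adjusted p = 0.0425 by edgeR). DUSP1, SPRY1, DUSP16, SPRED2 and DUSP9 were also called, in the same direction, with library totals. On that scale 3 of the 13 relatives rose and 6 fell, where 13.4% of all genes tested rose and 37.6% fell. Of 4 further ERK outputs (CCND1, EPHA2, EPHA4 and IER3), 1 rose and 0 fell (edgeR, 2 with an unadjusted p under 0.05, EPHA2 and CCND1). Among all genes tested with TMM scaling, 23.5% rose and 22.3% fell. EPHA2 went from 33.4 to 52.8 TMM-scaled CPM with its highest value, 63.2, at 25:75 (slope 0.78). With library totals EPHA2 was not called and IER3 fell, where 37.6% of all genes tested fell.

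**Figure D5:**
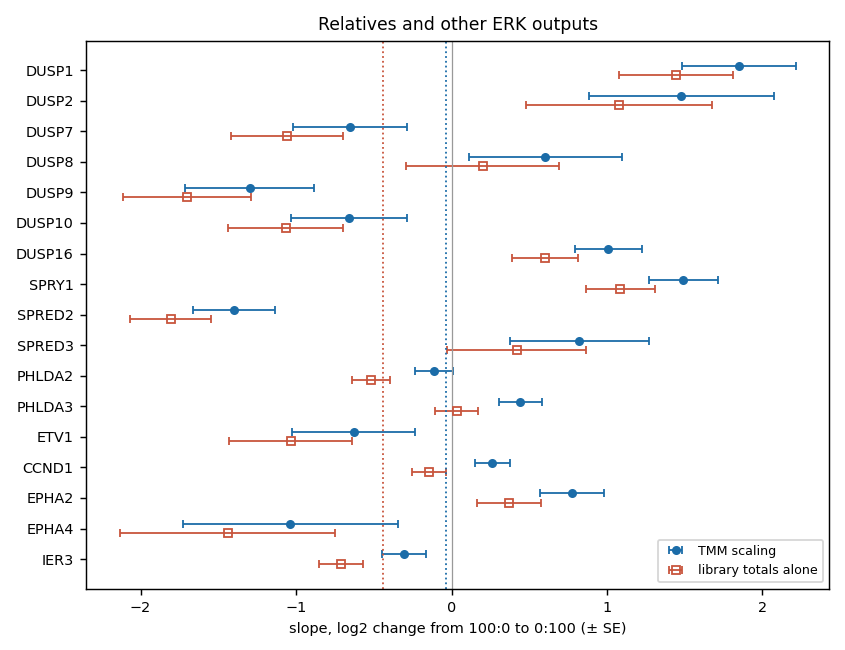
Slopes along the mixture series (log2 change from 100:0 to 0:100, bars are SE) of the tested relatives of the members and the 4 further ERK outputs, TMM scaling as filled circles and library totals as open squares. Dotted lines are the medians of all genes tested. SPRY1 and SPRED2 lie at 1.49 and -1.40 with TMM scaling, on the same sides with library totals.

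Libraries held from 2932250 to 4058751 assigned reads. The mitochondrial share of reads ran in order from 5.64% in the 100:0 library to 8.85% in the 0:100 library, and its part in the scaling of the members was not tested. Of 8 epithelial markers all had reads in every library, and their summed level ran from 5735 to 16496 TMM-scaled CPM toward HCC827, carried mostly by KRT7, KRT8, KRT18 and KRT19. EPCAM had a slope of 0.02 and was called as falling with library totals (slope -0.38). Of the markers of other cell types, PTPRC, CD3E and DCN were at 0 in all libraries. Leukocyte markers summed to at most 4.49 TMM-scaled CPM and endothelial markers to at most 1.43. The fibroblast list ran from 189 down to 7.21 TMM-scaled CPM, carried by COL1A1 and COL1A2.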

How the data were processed

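Long-read cDNA was counted in 5 libraries of a mixture series, 1 per ratio. The values are estimated counts of reads per transcript, unscaled, as deposited by the authors. The submitters' processing notes name minimap2 2.24, Salmon 1.9.0 and GRCh38, without roles or an annotation release. Whether counting used the strand was not given in the sources used here. 2 fractional values were rounded, 161 repeated identifiers were summed, and 224076 of 227751 human transcripts (98.6% of human reads) were paired with genes through GENCODE v44. Slopes on the HCC827 mass fraction were tested with edgeR 4.0.16 in R 4.3.3 (quasi-likelihood, TMM, at least 10 reads in at least 2 libraries), isoform usage with diffSpliceDGE, and alternatives with limma-voom (limma 3.58.1) and DESeq2 1.42.0. Standard errors were taken as slope over √F. A mixture is linear in expression, so a log2 slope can understate the ratio of the pure libraries. Slope fitting was also run on simulated counts in which few genes changed, in balanced numbers up and down. That run did not cover the choice of scaling, and its outcome is not reported here. Intervals cover counting error only, since each ratio had 1 library. PCR copies were not collapsed, so the intervals may be too narrow. P-values measure scatter about the trend among libraries of the same 2 RNAs. The length correction took, from each library, a lowess curve (span 0.3) on log2 of the deposited length. The curve was of log2(CPM + 0.5) minus the mean of that value over the libraries, per gene. Named genes were all 10 members, and for each pathway list the 3 largest and 3 smallest slopes among those called; CIC, ETV1, SPRY3, CCND1, EPHA4, IER3 and overlapping genes were named beyond that rule, after their values had been seen. Not every called gene of a list is reported here. The members and lists were chosen with earlier results of these data known.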

Additional observations from a re-analysis of the deposited data

How the results depend on the processing

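Over 13 alternatives, the 10 members gave 129 slopes (SPRY4 was not tested with at least 10 reads in every library). Of these, 112 kept their direction and their side of the threshold, 9 lost a call, 2 gained one and 6 changed sign, none of the last in a gene called in the main test. The sign changes were DUSP4 with library totals (-0.17), SPRED1 and PHLDA1 with the length trend removed (0.21 and 0.16), ETV5 without the 100:0 library (0.15), SPRED1 without the 75:25 library (0.024) and SPRY4 without the 0:100 library (0.021). With 1 library left out, slopes ran from -1.63 to 0.021 for SPRY4, from -0.42 to 0.024 for SPRED1 and from -0.29 to 0.15 for ETV5. Fits that each left out 1 library called from 2 to 4 members, 2 without the 100:0 library (ETV4 and DUSP6) and 2 without the 0:100 library (ETV4 and ERRFI1), from 4068 to 5860 genes and from 6289 to 10171 transcripts, and from 4 to 20 genes for isoform usage. Such fits use fewer libraries. For isoform usage, 65 genes passed the gene-level F test against 30 by the Simes method, and the cause was not tested. The all-gene count stayed within 1.5 times the 6172 of the main test under each alternative except the fit without the 0:100 library. With library totals 6887 genes were called, of which 1813 rose, against 3166 of 6172 with TMM scaling. The slope of the ETV4 to ETV5 ratio ran from 1.24 to 2.35 when 1 library was left out. No paired analysis was possible because each ratio had a single library. Depth limits SPRY4 and SPRY2 most, at 64 and 182 reads in all.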
